A study of Mus musculus with 6 samples.

Results

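The genes described here are 36 interferon-stimulated genes of primary mouse adipocytes, taken by symbol from a list of known interferon targets out of 22609 genes listed per sample. Of the 13117 genes that passed the filter on low counts, 36 were these genes, so no member was lost. RNA was sequenced from stromal vascular cells of inguinal (subcutaneous white) fat of male C57BL6 mice, with an age of 3 weeks in the labels and a slightly older age in the study's methods, that had been differentiated into adipocytes in culture. The 3 control samples carried a control vector by the labels and a mimic control by the study's methods. The 3 miR-182-5p samples (labelled miR182 overexpression, here mimic 1, 2 and 3) received an RNA mimic of miR-182-5p, a small regulatory RNA. Transfection was by electroporation according to the labels and by a lipid reagent according to the methods. The sources do not say whether the 3 samples of a group came from separate mice, cultures or transfections. The p-values thus set the difference between groups against a spread between these samples that may be technical. The comparison asks whether the mimic altered these genes, and each sample is also described on its own.

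Interferons are secreted proteins that a cell makes when it senses foreign nucleic acid, chiefly viral RNA or DNA in the wrong compartment. Type I interferons bind the receptor formed by IFNAR1 and IFNAR2, whose kinases JAK1 and TYK2 phosphorylate STAT proteins such as STAT2, and these join IRF9 to bind the interferon-stimulated response element (ISRE) in front of target genes. The products of these genes degrade or trap viral RNA, block translation, modify proteins with ISG15, present antigen and feed back on the pathway. White adipocytes carry the receptor and respond to interferon, as most nucleated cells do.

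The ISRE carried by part of these genes is shown in the 250 bases before the gene start of 4 members that hold it and of Irf1, which does not hold it in this window. The sequences are from RefSeq (GRCm38.p6) and are written in the direction of transcription, with each match to the ISRE core GAAANNGAAA, or to its complement on the other strand, in capitals.
Isg15 (chr4:156200819-156201068, minus strand): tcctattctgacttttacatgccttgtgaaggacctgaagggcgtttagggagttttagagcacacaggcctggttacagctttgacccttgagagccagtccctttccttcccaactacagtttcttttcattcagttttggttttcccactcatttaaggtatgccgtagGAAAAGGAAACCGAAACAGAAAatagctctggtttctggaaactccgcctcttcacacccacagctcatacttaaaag
Ifit1 (chr19:34640639-34640888, plus strand): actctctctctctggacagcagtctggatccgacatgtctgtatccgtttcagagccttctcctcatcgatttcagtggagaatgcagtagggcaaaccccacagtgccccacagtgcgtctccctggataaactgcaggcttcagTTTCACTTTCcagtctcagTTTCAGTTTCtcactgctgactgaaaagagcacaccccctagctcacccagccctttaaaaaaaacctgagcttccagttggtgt
Rsad2 (chr12:26456453-26456702, minus strand): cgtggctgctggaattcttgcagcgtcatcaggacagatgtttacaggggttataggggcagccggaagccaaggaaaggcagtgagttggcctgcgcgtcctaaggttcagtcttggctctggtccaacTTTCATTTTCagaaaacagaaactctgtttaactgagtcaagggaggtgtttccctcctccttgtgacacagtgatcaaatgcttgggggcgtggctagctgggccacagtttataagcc
Stat2 (chr10:128270248-128270497, plus strand): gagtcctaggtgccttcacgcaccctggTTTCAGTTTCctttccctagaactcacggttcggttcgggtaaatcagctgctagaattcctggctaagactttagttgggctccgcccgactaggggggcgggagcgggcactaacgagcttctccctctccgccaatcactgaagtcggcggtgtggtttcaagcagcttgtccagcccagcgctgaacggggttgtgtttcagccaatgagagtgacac
Irf1 (chr11:53769764-53770013, plus strand): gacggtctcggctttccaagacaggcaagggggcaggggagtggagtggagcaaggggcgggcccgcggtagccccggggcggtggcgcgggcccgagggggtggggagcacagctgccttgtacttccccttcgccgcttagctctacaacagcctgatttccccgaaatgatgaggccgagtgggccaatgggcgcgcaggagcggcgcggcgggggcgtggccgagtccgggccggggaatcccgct
Isg15 had 3 overlapping matches, at 78, 72 and 66 bases before the start. Ifit1 had 2 matches, at 104 and 85 bases before it, and Rsad2 and Stat2 had 1 each, at 120 and 222 bases. Windows from 250 bases before to 50 bases after a start were given for 28 of the 36 genes (none for Dhx58, Zbp1, Usp18, Mx1, Mx2, Oas2, Parp14 and Rtp4). The ISRE core occurred in 14 of these 28 (50%), against 1079 of 27025 genes with a window (3.99%). The core of the gamma-activated site, TTCNNNGAA, the element of the interferon gamma response, occurred in 9 of the 28 (32.1%) against 9.55% of all genes, and it overlapped an ISRE core in Bst2 and Ifitm3. Both strands were searched. These are matches of letters, and binding was not measured.

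Libraries were of similar depth, with 25869810 to 28796712 reads on genes. Defining adipocyte genes were abundant in every sample: 12 of 12 adipocyte markers passed the filter and together made up 10294 to 15072 CPM (reads on a gene per 1000000 scaled reads on all genes). By the fold and adjusted p cutoffs given below, 3 were lower under the mimic (Fabp4, Retn and Pnpla2) and 0 higher. On adjusted p alone 8 were lower and 2 higher (Plin4 and Lep). Of all genes 5.48% were lower and 1.97% higher by both cutoffs, and 23.5% and 23.2% on adjusted p alone. Genes that define plasmacytoid dendritic cells, the chief interferon producers of blood, were near 0 (0 of 5 tested, at most 9 reads, Siglech at 0 throughout), as were those of T, NK and B cells (0 of 10 tested, at most 8 reads). Of the 14 macrophage markers 4 were tested. Lyz2 was lower with the mimic, at 18 to 34 reads per sample. Cd68, Cd14 and Csf1r did not pass (log2 fold changes -0.24, -0.59 and 0.11). The summed level of the list was 15.4 to 16.4 CPM in controls and 13.1 to 17.1 CPM with the mimic. Ptprc, the pan-leukocyte antigen CD45, had 0 to 4 reads per sample. Endothelial markers summed to 8.13 to 9.27 CPM and 5.09 to 5.74 CPM, with 1 of 3 tested lower, and 4 of 7 tested stromal progenitor markers were lower. On adjusted p alone 5 of these 7 were lower and 1 (Thy1, log2 fold change 0.19) was higher. In bulk RNA, fewer cells of a type and less RNA per cell cannot be told apart. The gene Mir182 had 0 reads in all 6 libraries, which select polyadenylated RNA, so delivery of the mimic could not be checked here.

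Across the 3 samples of each group, the interferon-stimulated genes were higher on average with the miR-182-5p mimic, but the difference lay mostly in 1 control with low levels and 1 mimic sample with high levels. Calls required a 1.5-fold change and an adjusted p under 0.05 (edgeR quasi-likelihood test, Benjamini-Hochberg adjustment over 13117 genes). Of the 36 genes, 8 rose and 0 fell by this rule: Stat2, Isg15, Usp18, Mx2, Rsad2, Oas1a, Ifi44 and Parp14. Of all genes tested 1.97% were called higher and 5.48% lower. By adjusted p alone 15 of 36 (41.7%) were higher and 0 lower, against 23.2% and 23.5% of all genes. At an unadjusted p under 0.05 the numbers were 18 higher and 0 lower, against 26.3% and 26.8% of all genes. DESeq2 gave log2 fold changes that differed from these by at most 0.011 but called 0 of the 36 (background 1.57%). By that tool 2 genes passed the adjusted p (Irf1 and Isg20, background 20.1%), and 5 were higher at an unadjusted p under 0.05 (background 23.3%). The median log2 fold change of the 36 genes was 0.50, that of all genes -0.0043, and 35 of the 36 were above 0, the exception being Psmb9. In spite of these calls, full separation of the groups sample by sample was not more common among the 36 genes than among all genes. All mimic samples lay above all controls in 8 genes (Stat2, Irf1, Usp18, Trim25, Isg20, Eif2ak2, Samd9l and Ifi44), which is 22.2% and below the 27.3% among all genes, and in 0 genes did every mimic sample lie below, against 27.5%.

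Taken sample by sample, the 36 genes ran together. Their summed level was 957 CPM in control 1, 1406 in control 2 and 1496 in control 3, and 2445 in mimic 1, 1449 in mimic 2 and 1365 in mimic 3. Thus 4 of the samples had sums between 1365 and 1496 CPM, control 1 lay below them and mimic 1 above them. Mimic 1 was the highest of the 6 samples for 35 of the 36 genes, while it was highest for 18.99% of all genes. Control 1 was the lowest for 33 of the 36, compared with 17.7% of all genes. Both held at once for 32 genes. The genes that broke the pattern were Mx1, highest in mimic 3, Ifit2 and Psmb9, lowest in mimic 2, and Irf1, lowest in control 2 by a small margin.

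**Figure D1:**
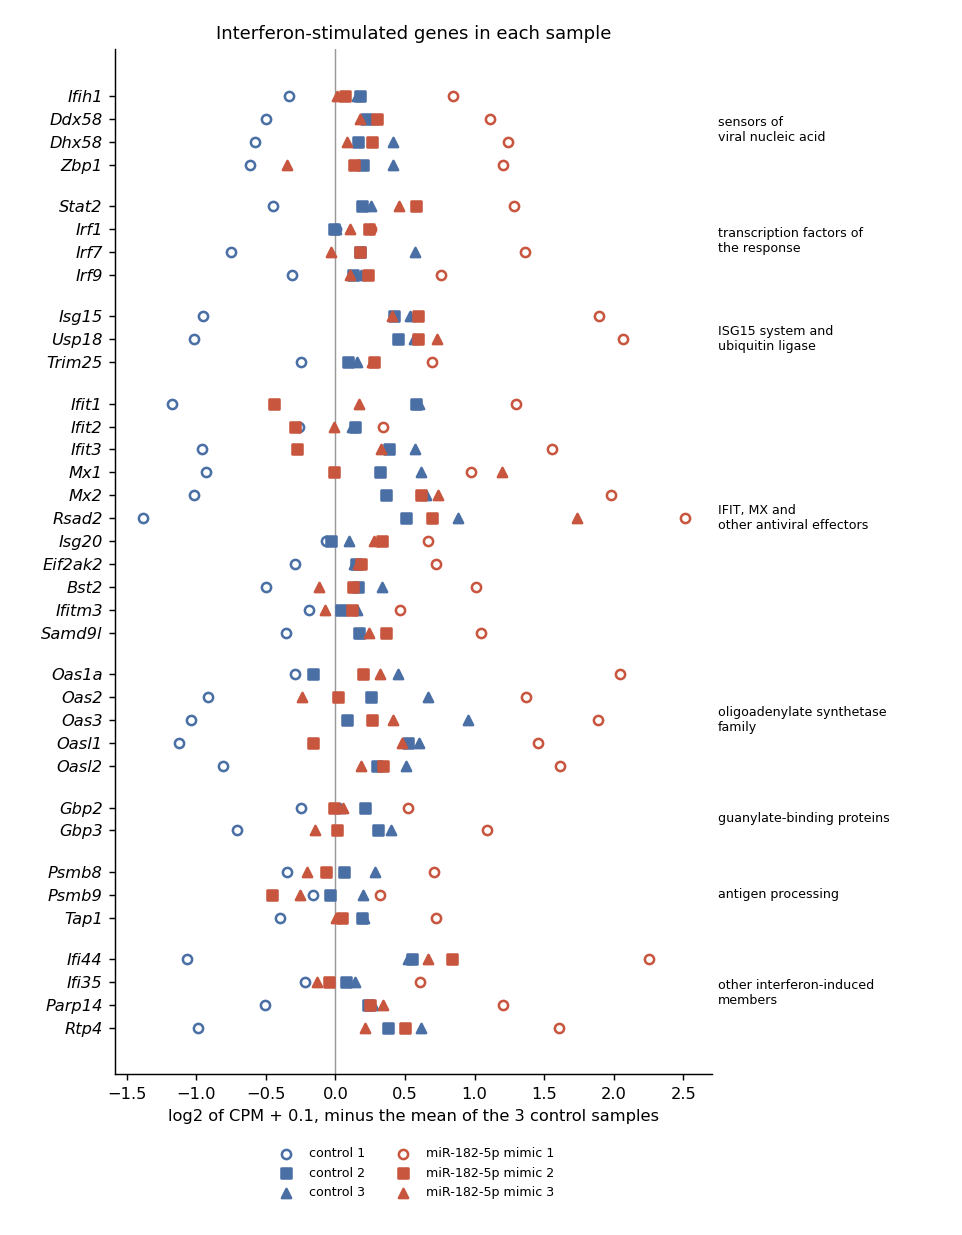
Level of each of the 36 genes in each sample as log2 of CPM plus 0.1, minus the mean of the 3 control samples (horizontal axis), with genes grouped by role (vertical axis). Blue symbols are controls and red symbols mimic samples, open circles are the first sample of each group; control 1 lies at the left for 33 genes and mimic 1 at the right for 35, while the other 4 samples span a median of 1.30-fold per gene and at most 2.46-fold (Mx1).

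Against the other samples of its own group, control 1 was low by a median of 1.69-fold over the 36 genes, with a largest shortfall on the log2 scale of -2.08 for Rsad2. Mimic 1 was high by a median of 1.94-fold. The corresponding median log2 differences were 0.29 and 0.55 for controls 2 and 3, and -0.43 and -0.45 for mimics 2 and 3. The same medians over all genes tested lay between -0.0023 and 0.008, which the scaling of the libraries itself sets near 0. Mimic 1 also stood apart outside these genes. The chi-square per degree of freedom between counts of all but the lowest genes was 4.82 and 6.90 against mimics 2 and 3. It was 2.08 between mimics 2 and 3, and 2.46 to 3.00 between controls. The cause was not tested. Mimic 1 exceeded both other mimic samples in 35 genes (97.2%, against 35.8% of all genes), and control 1 was below both other controls in 35 (97.2%, against 31.7%). Control 3 was above control 2 in 31 genes, and mimic 3 above mimic 2 in 13. All of these counts are descriptions, since the 36 genes share 6 libraries and are not independent of each other.

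**Figure D2:**
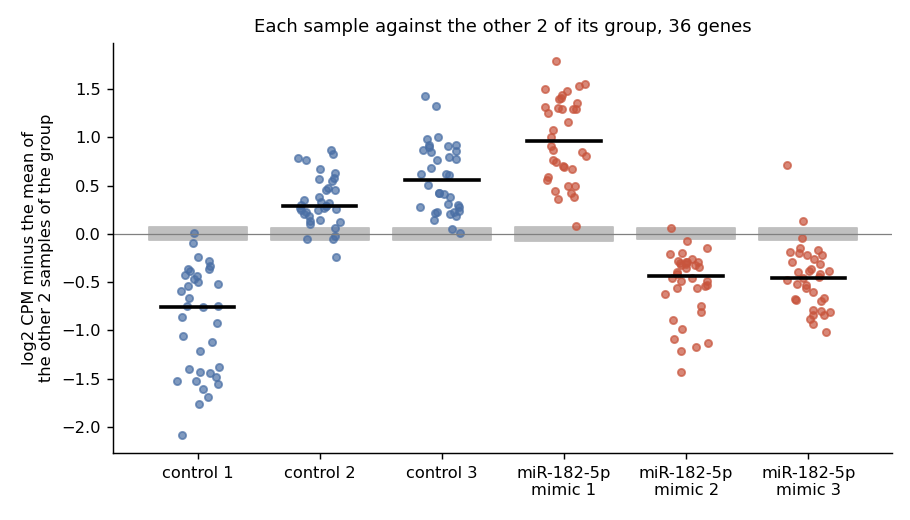
Log2 CPM of each sample minus the mean of the other 2 samples of its group (vertical axis), for the 36 genes in the 6 samples (horizontal axis). Points are genes, black bars their medians (-0.75 in control 1 and 0.96 in mimic 1), and grey boxes span the middle 50% of all genes tested.

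Samples that carry the same number in the 2 groups were also set side by side, although the numbers do not mark a stated pairing. Mimic 1 exceeded control 1 for 36 of 36 genes, with a median ratio of 3.39 and a range from 1.19 (Irf1) to 14.9 (Rsad2), computed on CPM plus 0.1. Mimic 2 exceeded control 2 for 21 of 36, with a median ratio of 1.02 and a range from 0.494 (Ifit1) to 1.31 (Stat2). Mimic 3 exceeded control 3 for 13 of 36, with a median ratio of 0.912 and a range from 0.534 (Oas2) to 1.81 (Rsad2). Over all genes the mimic sample was the higher for 48.7% to 49.7%.

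Of the 4 sensors of viral nucleic acid 1 passed on p and 0 were called. Ddx58 encodes RIG-I, which detects uncapped viral RNA. It had 47.4, 77.9 and 81.2 CPM in controls 1 to 3 and 145, 82.6 and 75.6 CPM in mimics 1 to 3. Mimic 3 lay below 2 of the controls, so the groups overlapped. The means were 68.8 ± 18.6 and 101 ± 38.0 CPM (SD, n = 3), and the log2 fold change of 0.55 (SE 0.21, adjusted p = 0.0439) passed on p but not on size. Dhx58, whose product LGP2 tunes RIG-I and MDA5, was at 12.4, 20.8 and 24.8 CPM and at 44.1, 22.3 and 19.6 CPM, with overlapping groups (log2 fold change 0.57, SE 0.26, adjusted p = 0.0876). Ifih1, which encodes the long-RNA sensor MDA5, ranged over 2.27-fold and Zbp1, a sensor of Z-form nucleic acid, over 3.54-fold, and neither passed.

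Of the 4 transcription factors of the response 1 was called and 3 passed on p. Stat2 is the STAT used almost only by type I and III interferons. Its levels were 67.1, 104 and 109 CPM in controls and 223, 136 and 125 CPM with the mimic. Every mimic sample lay above every control, with mimic 1 far above the rest. Means were 93.5 ± 23.0 and 162 ± 53.4 CPM (SD, n = 3), a log2 fold change of 0.79 (SE 0.19, adjusted p = 0.00322). Irf1, a factor induced by interferon gamma and by inflammatory signals, had nearly equal controls. It was at 27.4, 27.1 and 27.4 CPM in controls and 32.6, 32.3 and 29.4 CPM with the mimic. The first samples did not stand apart for this gene, and the groups were separate by a small step of 27.3 ± 0.195 to 31.4 ± 1.78 CPM (log2 fold change 0.20, SE 0.05, adjusted p = 0.00662). Irf9, the DNA-binding partner of STAT2, passed on p alone with overlapping groups (0.38, SE 0.14, adjusted p = 0.0422). Irf7, which amplifies interferon production, was spread over 4.34-fold and did not pass (0.55, SE 0.32, adjusted p = 0.178).

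The ISG15 system had 3 of 3 members past the adjusted p. Isg15 is a ubiquitin-like protein attached to other proteins during the response. It was at 16.4, 42.5 and 46.1 CPM in controls and 119, 47.9 and 42.2 CPM with the mimic. Control 1 was 2.69-fold below the mean of its group's other samples and mimic 1 2.63-fold above, and the other 4 samples overlapped. The log2 fold change was 0.99 (SE 0.35, adjusted p = 0.0331), from 35.0 ± 16.2 to 69.6 ± 42.5 CPM (SD, n = 3). Usp18 removes ISG15 from proteins and dampens signalling at IFNAR2. It had 4.75, 13.3 and 14.4 CPM against 40.9, 14.7 and 16.2 CPM. The groups did not overlap, but by a margin of 14.4 to 14.7 CPM (log2 fold change 1.15, SE 0.37, adjusted p = 0.0194). Trim25 is the ubiquitin ligase that acts in RIG-I signalling. It rose within narrower limits, from 77.6, 98.1 and 102 CPM to 149, 111 and 111 CPM, without overlap (0.42, SE 0.11, adjusted p = 0.00506), which is under 1.5-fold.

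Among 11 antiviral effectors 2 were called and 5 passed on p. Rsad2 encodes viperin, an enzyme that makes a chain-terminating nucleotide. It was at 1.06, 4.21 and 5.48 CPM in controls and 17.2, 4.82 and 10.02 CPM with the mimic. It had the widest range of the 36 genes, 16.2-fold between control 1 and mimic 1, and mimic 2 lay within the controls. The means were 3.58 ± 2.27 and 10.7 ± 6.21 CPM (log2 fold change 1.58, SE 0.42, adjusted p = 0.00684). Mx2, a dynamin-like GTPase, had 1.22, 3.33 and 4.10 CPM against 10.5, 3.99 and 4.36 CPM. Mimic 2 was again within the controls (log2 fold change 1.13, SE 0.37, adjusted p = 0.0231). Isg20, an exonuclease that degrades RNA, had the smallest adjusted p of the members. Its levels were 11.4, 11.6 and 12.7 CPM and then 18.9, 14.99 and 14.5 CPM, all mimic samples being above all controls. The mean went from 11.9 ± 0.728 to 16.1 ± 2.45 CPM (0.44, SE 0.10, adjusted p = 0.00183), a change under 1.5-fold. Samd9l, a restriction factor that acts on translation (0.58, SE 0.17, adjusted p = 0.0136), and Eif2ak2, the double-stranded RNA kinase PKR (0.37, SE 0.13, adjusted p = 0.0331), also passed on p without overlap between groups, and Samd9l lay just inside the log2 line of 0.585 for 1.5-fold.

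The IFIT genes, whose products bind viral RNA ends, did not separate the groups. Ifit1 was chosen for display after its values were seen. It had 11.1, 37.6 and 38.2 CPM in controls and 62.2, 18.5 and 28.3 CPM with the mimic. Controls 2 and 3 lay above mimics 2 and 3, the reverse of the first samples (log2 fold change 0.33, SE 0.39, adjusted p = 0.515). Ifit3 (0.61, adjusted p = 0.208) and Ifit2 (0.03, adjusted p = 0.879) did not pass either. Mx1, another dynamin-like GTPase, was low, with 10 to 58 reads per sample, and did not pass (0.73, adjusted p = 0.115). Nor did Bst2, the tether of budding virus (0.38, adjusted p = 0.2), or Ifitm3, which blocks viral fusion (0.18, adjusted p = 0.181).

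The oligoadenylate synthetase genes encode enzymes that make a nucleotide messenger on sensing double-stranded RNA, or proteins that resemble them. Oas1a was at 1.22, 1.34 and 2.11 CPM in controls and 6.54, 1.75 and 1.91 CPM with the mimic. Only mimic 1 was outside the control range (log2 fold change 1.14, SE 0.44, adjusted p = 0.0442, called). Oasl2 was at 17.99, 38.98 and 45.1 CPM and 96.9, 40.04 and 35.99 CPM, with overlap (0.76, SE 0.33, adjusted p = 0.0729). Oas2 (0.45, adjusted p = 0.386), Oas3 (0.97, adjusted p = 0.152, 4 to 54 reads) and Oasl1 (0.58, adjusted p = 0.236) did not pass. All 5 spanned at least 5.27-fold between their lowest and highest sample. Genes of the OAS, IFIT, MX and guanylate-binding families have close copies, so reads that map to several of them are missing from these counts.

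Guanylate-binding and antigen-processing genes, which respond strongly to interferon gamma, showed no call. Gbp2, a GTPase that attacks pathogen membranes, was at 34.8, 47.8 and 42.1 CPM and 59.2, 41.0 and 42.9 CPM (log2 fold change 0.20, SE 0.12, adjusted p = 0.202). Gbp3, of the same family, was at 19.1, 38.5 and 41.3 CPM and 66.4, 31.4 and 28.1 CPM (0.35, SE 0.28, adjusted p = 0.336). In both, mimics 2 and 3 lay within the range of the controls. Tap1, a subunit of the peptide transporter, was at 23.2, 34.9 and 35.2 CPM and 50.4, 31.6 and 30.6 CPM (0.27, SE 0.17, adjusted p = 0.212). Psmb8, an immunoproteasome subunit, was at 7.503, 10.03 and 11.7 CPM and 15.8, 9.15 and 8.32 CPM (0.19, SE 0.20, adjusted p = 0.469). The groups overlapped in each case. Tap1 and Psmb9 share 212 exon bases on opposite strands, and whether the counting used the strand is not given in the sources used here. Psmb9, another such subunit, had the one fold change below 0 (-0.09, SE 0.17, adjusted p = 0.683).

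Of the 4 remaining genes 2 were called. Ifi44, a cytoplasmic protein of the response, was at 2.71, 8.54 and 8.35 CPM in controls and 28.1, 10.4 and 9.28 CPM with the mimic. The groups did not overlap, with mimics 2 and 3 close above controls 2 and 3 (log2 fold change 1.29, SE 0.40, adjusted p = 0.0155). Parp14, a mono-ADP-ribosyltransferase, was at 25.6, 42.7 and 43.9 CPM and 83.8, 43.1 and 46.2 CPM. Mimic 2 lay between the controls here (0.63, SE 0.22, adjusted p = 0.0299). Rtp4, a chaperone of G protein-coupled receptors that also restricts viruses (0.76, adjusted p = 0.0824), and Ifi35 (0.18, adjusted p = 0.357) did not pass.

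The weight of single samples was described by refitting without each one. Control 1 was the lowest sample for 33 genes and mimic 1 the highest for 35. Leaving out either therefore lowers most fold changes by construction. Without control 1, 2 of 36 genes were called higher (Stat2 and Rsad2; 5.56%, background 1.68%) and 5 passed on p (13.9%, background 19.7%). Without mimic 1, 1 was called higher (Rsad2; 2.78%, background 1.67%), 6 were higher on p (16.7%, background 21.5%) and 1 was lower on p (Psmb9, -0.36; background 22.1%). Without control 2, 6 genes were called higher (background 1.77%), and without control 3, 14 (background 2%). Without mimic 2 the number was 13 (background 2.14%) and without mimic 3 it was 16 (background 2.13%). Rsad2 was called in every one of these 6 fits, with a log2 fold change from 1.05 to 2.02. Stat2, Irf1, Trim25, Rsad2 and Isg20 passed the adjusted p in all 6 (13.9% of the 36), and 9 genes passed in 0 of the 6 (Ifit1, Ifit2, Oas2, Oasl1, Gbp2, Gbp3, Psmb8, Tap1 and Ifi35). The shares of all genes that passed in all 6 or in 0 of them were not computed.

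With both first samples left out, a fit of 2 against 2 chosen after the counts were seen, the fold changes lay on both sides of 0. This choice drops the lowest control of 33 genes and the highest mimic sample of 35, so it moves their fold changes down by construction, and the values are a description of the other 4 samples. The median log2 fold change was -0.11, with 15 genes above 0 and 21 below. Rsad2 was called higher (0.63, SE 0.21, adjusted p = 0.0197), 1 of 36 against a background of 1.81%. Ifit1 (-0.69, SE 0.10, adjusted p = 7.07e-06) and Oas2 (-0.61, SE 0.21, adjusted p = 0.0256) were called lower, 2 of 36 against 5.21%. By adjusted p alone 6 genes were higher (16.7%, background 20.8%): Stat2 (0.29), Irf1 (0.18), Trim25 (0.15), Rsad2 (0.63), Isg20 (0.27) and Samd9l (0.12). Lower by adjusted p were 12 genes (33.3%, background 21.3%), namely Zbp1, Irf7, Ifit1, Ifit2, Ifit3, Bst2, Oas2, Gbp3, Psmb8, Psmb9, Tap1 and Ifi35.

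**Figure D3:**
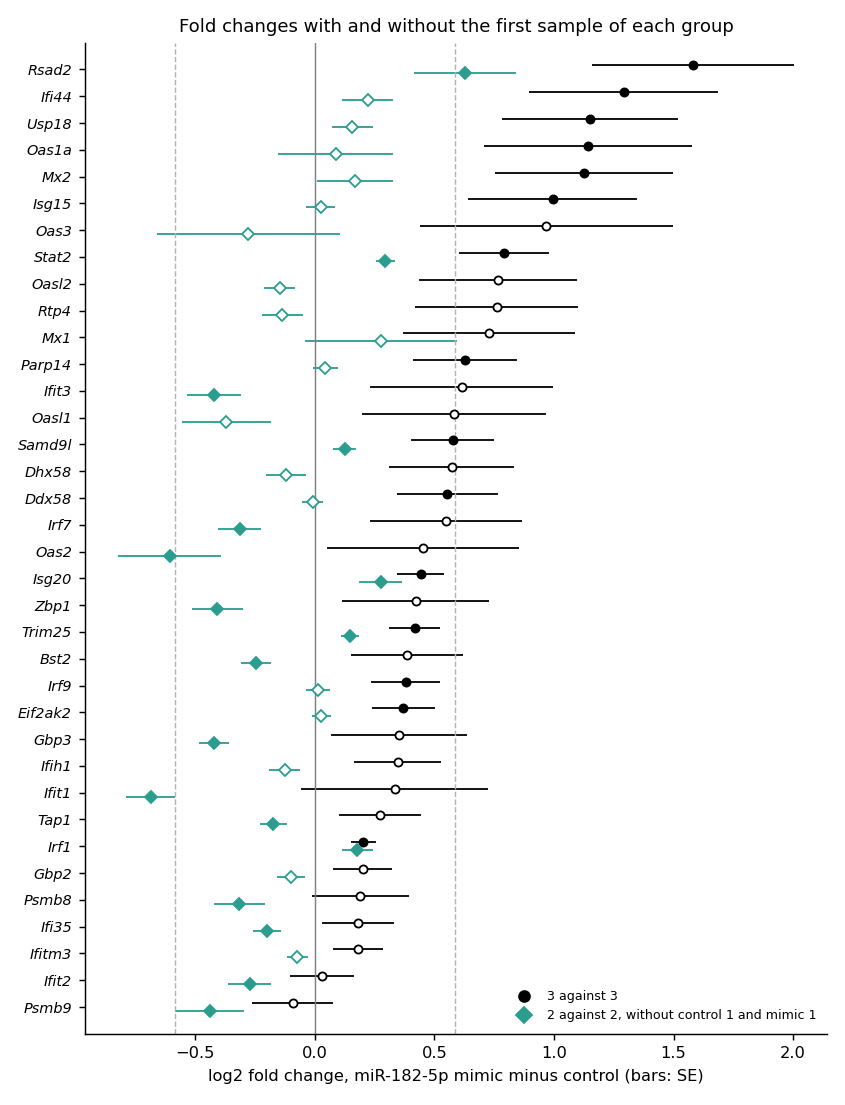
Log2 fold change of each gene, mimic minus control, with its SE (horizontal axis), ordered by the fit of all 6 samples (black circles), beside the fit of 2 against 2 without control 1 and mimic 1 (green diamonds). Filled symbols passed an adjusted p of 0.05 and dashed lines mark 1.5-fold; 35 black and 15 green symbols lie above 0.

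Genes upstream of the response were measured from 3 lists. Interferon ligands were hardly detected: of 19 listed type I, II and III genes 0 passed the filter, 14 had 0 reads in all samples and the others at most 3. Ifnb1, the type I interferon most cells make first, had 1 read in control 1 and 0 elsewhere. Among 15 tested receptor and JAK-STAT genes 0 were called, with 5 higher and 3 lower on p. Of all genes tested 1.97% were called higher and 5.48% lower, and 23.2% and 23.5% passed on p. Ifnar1 was level, at 101 to 104 CPM in controls and 99.2 to 103 CPM with the mimic (log2 fold change -0.03, SE 0.03, adjusted p = 0.515), and Ifnar2 was slightly lower (-0.10, SE 0.04, adjusted p = 0.0471). Of 18 tested genes for sensing adaptors, kinases and other IRF factors 0 were called higher, and Irf4 (-0.83), a factor of lymphocytes and adipocytes, was called lower. On p alone 6 were higher and 3 lower in that list, beside the same 23.2% and 23.5% of all genes.

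**Figure D4:**
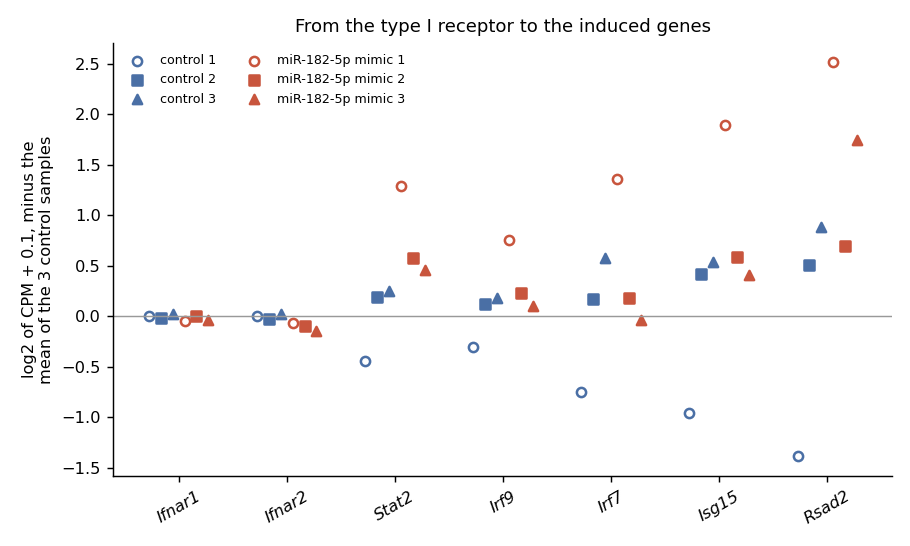
Level of 2 receptor genes, 3 transcription factor genes and 2 induced genes in each sample, as log2 of CPM plus 0.1 minus the mean of the 3 controls (vertical axis), by gene (horizontal axis). The 6 samples lie close together for Ifnar1, the mimic samples slightly below the controls for Ifnar2, and from Stat2 onward control 1 is the lowest and mimic 1 the highest.

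A list of 60 further interferon-induced genes was read in the same way. Of 51 tested, 8 were called higher and 2 lower (1.97% and 5.48% of all genes). On p alone 16 were higher and 7 lower (23.2% and 23.5% of all genes). The 5 called genes with the smallest p were Ifi27l1 (log2 fold change -0.62), Ifi30 (-1.19), a lysosomal thiol reductase, Ifi27l2a (0.59), Cmpk2 (1.55), a mitochondrial nucleotide kinase, and Herc6 (0.73), a ligase that attaches ISG15. Mimic 1 was highest for 41 of the 51 and control 1 lowest for 37, against 18.99% and 17.7% of all genes. In the 2 against 2 fit 1 of 52 was called higher and 3 lower (1.81% and 5.21% of all genes). On p alone 6 were higher and 17 lower there (20.8% and 21.3% of all genes).

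The seed of the miRNA, as given by RefSeq, was looked for in the members. Base pairing of the seed with the 3′-UTR of an mRNA is a way in which a miRNA lowers its target. The study reported a target site ahead of the coding region, in the mRNA of Rev-Erbα. Such regions were not searched for the seed here. The study's methods also print a different mature sequence, so the seed searched for may not be that of the mimic used. The mature sequence from RefSeq is printed with seed bases 2 to 8 in capitals (GRCm38.p6, chr6:30165962-30165986, minus strand), followed by the 3 sites in members, with the match to the seed in capitals.
mmu-miR-182-5p: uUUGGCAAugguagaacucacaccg
Ifih1 site: ttaaaataTTGCCAActcaacat
Ifit1 site: aaaagtctTTGCCAAagaaggta
Mx1 site: gcagaagcTTGCCAAattctccg
The site TTGCCAA was present in the 3′-UTR of 3 of 36 members (8.33%) and of 1741 of 12546 tested genes with an annotated 3′-UTR (13.9%), which were longer (median 1383 bases against 753). The genes Ifih1, Ifit1 and Mx1 did not pass the adjusted p with all 6 samples. Ifit1, called lower in the comparison of 2 against 2, thus holds 1 such site, while Oas2, called lower there too, holds none. Ifih1 (-0.13, adjusted p = 0.116) and Mx1 (0.28, adjusted p = 0.522) hold a site and did not pass in that edgeR fit. It was chosen after the counts were seen and moves most fold changes down by construction. Targeting was not tested.

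The promoter matches were also set beside the spread between samples. The 14 genes with an ISRE core in their window had a median ratio of 3.40 between their highest and lowest sample (1.57 to 16.2), and the 14 without one a median of 2.10 (1.20 to 10.4). The 8 genes with no window had a median of 5.25. Isg15, Ifit1, Rsad2 and Stat2, printed above with the motif, had ratios of 7.24, 5.61, 16.2 and 3.32, and Irf1, printed without it, had 1.20. Ifi44, at 10.4, had no core in its window, so the letters and the spread did not always go together.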

How the data were processed

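Gene expression was measured in 6 libraries of poly(A)-selected RNA, 3 per group. The deposited values are unnormalized counts of reads on each of 22609 gene symbols, with 1 list for each sample. The submitters' processing notes name bcl2fastq, TopHat2, HTSeq and the build mm9, while the counting mode, strand setting and annotation are not given in the sources used here. The 5 closing tally lines were left out of library sizes (reads outside genes were 12.7% to 13.0%, and alignments that were not unique were kept apart). Groups came from the sample labels.

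Genes were kept with edgeR's filterByExpr (minimum count 10), scaled by TMM and tested with the edgeR quasi-likelihood test (edgeR 4.0.16, R 4.3.3), with Benjamini-Hochberg adjustment over all 13117 genes tested. CPM are reads per 1000000 TMM-scaled reads on genes, and log2 CPM used a pseudocount of 0.1. The code was tested on simulated counts. The 36 members, their 8 role groups, the 4 lists of other pathway genes and the 6 marker lists were chosen with earlier results of these data known. Values in every sample were given for called members and for the 2 members of each role group with the smallest p. Other pathway genes were named where called, at most 5 per list by smallest p, and Ifnb1, Ifnar1 and Ifnar2 always; some genes of these lists are not reported here. Alternatives were DESeq2 1.42.0, limma-voom 3.58.1, other scalings, filters and cutoffs, a replicate block, each sample left out in turn and, added after the counts were seen, both first samples left out and total counts in place of TMM. Promoters and the miRNA were from RefSeq (GRCm38.p6) and 3′-UTRs and exon overlaps from GENCODE (GRCm38). With mm9 as the build of the files, no coordinates of the counts were used. Reads on genes were 25869810 to 28796712 per sample, and fold changes of members with few reads, such as Oas3, had larger SE. With 3 against 3, an exact permutation test of a single gene cannot go below p = 0.1 (two-sided), so none was run.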

Additional observations from a re-analysis of the deposited data

How the results depend on the processing

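The count of members called higher, 8 with all samples, was 0 with DESeq2, 5 with a 2-fold cutoff and 1 to 16 with 1 sample left out. Past the adjusted p were 15 with all samples, 2 with DESeq2 and 5 to 23 with 1 sample left out, where 0 to 1 were lower. Among the fits with 1 sample left out, the fewest calls came without control 1 (2) or mimic 1 (1). Leaving out either lowers most fold changes by construction. Without both, 1 was called higher and 2 lower, 6 and 12 passed on p, and the median log2 fold change turned from 0.50 to -0.11. Called pathway genes, 12 with all samples, were 7 with DESeq2, 5 to 20 with 1 sample left out and 6 without both first samples. limma-voom, the other scalings and the other filters kept these counts within 1.5 times.

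No pairing by the numbers in the labels is stated. Deviations from the group means of same-numbered samples correlated at -0.185, -0.044 and -0.079 across genes. Those of differently numbered samples correlated at -0.056 to 0.119. With 3 samples a group, these values cannot show whether samples were paired. With the replicate number as a block, 2 members were called higher (background 1.74%), 6 passed on p (16.7%, background 21.6%), 9 pathway genes were called and the median log2 fold change was 0.45.

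With 1 sample left out, the log2 fold changes of 12 members lay on both sides of 0: Zbp1 (-0.16 to 0.71), Irf7 (-0.026 to 0.86), Ifit1 (-0.30 to 0.65), Ifit2 (-0.15 to 0.17), Ifit3 (-0.082 to 0.94), Bst2 (-0.037 to 0.60), Oas2 (-0.26 to 0.83), Gbp3 (-0.15 to 0.58), Psmb8 (-0.16 to 0.37), Psmb9 (-0.36 to 0.061), Tap1 (-0.0016 to 0.41) and Ifi35 (-0.10 to 0.32). For all 12 the lowest value was that without mimic 1, and Ifit1 and Ifit2 were also below 0 without control 1 (-0.05 and -0.09). Mimic 1 was the highest sample for each of these 12, so leaving it out lowers their fold changes by construction. Psmb9, below 0 with all samples, was above it without control 3 (0.01) and without mimic 2. Without both first samples 20 turned: Ifih1 (-0.13), Ddx58 (-0.0096), Dhx58 (-0.12), Zbp1 (-0.41), Irf7 (-0.31), Ifit1 (-0.69), Ifit2 (-0.27), Ifit3 (-0.42), Bst2 (-0.25), Ifitm3 (-0.074), Oas2 (-0.61), Oas3 (-0.28), Oasl1 (-0.37), Oasl2 (-0.15), Gbp2 (-0.10), Gbp3 (-0.42), Psmb8 (-0.32), Tap1 (-0.17), Ifi35 (-0.20) and Rtp4 (-0.14). The cause was not tested.

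With 3 samples a group, and with control 1 and mimic 1 standing apart, the effect of the mimic and a difference between single samples cannot be told apart for most members. Stat2, Irf1, Trim25, Rsad2 and Isg20 passed the adjusted p whichever single sample was left out, 5 of 36 (13.9%). The share of all genes that did so was not computed. In DESeq2 with all samples, Irf1 and Isg20 passed the adjusted p. Stat2, Trim25 and Rsad2 did not (adjusted p = 0.0527, 0.0666 and 0.102). In single fits 19.7% of all genes were higher on p without control 1, and 21.5% without mimic 1. The groups overlapped for Rsad2, and the cause was not tested for these 5 genes either.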

Other observations

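Genes outside the 36 were searched for the same deviation of the first samples, by a rule chosen after the data were seen. It asked for genes at least 1.25-fold lower in control 1 than in both other controls and at least 1.25-fold higher in mimic 1 than in both other mimic samples. It found 101 of 13117 genes (0.77%). Of these 28 were members (27.7% of the genes found and 77.8% of the members), 24 were on the lists of other pathway genes and 49 on neither. The lists are not complete. Genes on neither include relatives of listed genes by symbol, such as Gbp9, Trim30d and Sp110. Absence from the lists thus does not place a gene outside the interferon response. The opposite deviation was met by 29 genes, 0 of them members. The rule compares samples within a group only. Control 1 was also the lowest and mimic 1 the highest of all 6 samples for 27 of the 28 members, 24 of the 24 other pathway genes and 31 of the 49 remaining genes. A mean under 1 CPM was found for 1 of the 28, 0 of the 24 and 21 of the 49.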
